A study of Mus musculus with 12 samples.

Results

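The genes described here are the TRIM and PARP families as the arrays name them, that is, every gene name made of Trim or Parp followed by a number. The arrays carried 74 such names, 62 Trim and 12 Parp. Where a gene had several probes, the one with the highest mean log2 signal over the 12 arrays stood for it, and a gene was kept when, in 1 or more groups, none of the 3 arrays had that probe near background. This kept 53 genes, 41 Trim and all 12 Parp, among the 20469 genes that passed the same filter out of 35482 names on the array. The 53 were split with a list taken from general knowledge of the families into 17 interferon-driven members (12 Trim, 5 Parp) and 36 others. This list was drawn up with earlier results of these data known. The 21 names not kept were Trim10, Trim15, Trim17, Trim29, Trim31, Trim40, Trim42, Trim43b, Trim50, Trim52, Trim54, Trim55, Trim58, Trim60, Trim61, Trim63, Trim66, Trim67, Trim71, Trim72 and Trim75.

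TRIM proteins typically carry a RING domain, one or more B-boxes and a coiled coil, though some lack the RING. Most of them attach ubiquitin to other proteins. Several act in macrophages as antiviral factors or as switches on the pathways downstream of nucleic acid sensors and Toll-like receptors. PARP proteins transfer ADP-ribose from NAD+ to proteins or nucleic acids: a few build long chains at DNA breaks, while most add single units, and a subset of these is switched on by interferon. Lipopolysaccharide (LPS), a component of the outer membrane of Gram-negative bacteria, makes macrophages secrete type I interferon through the receptor Tlr4 and the adaptor Ticam1. The secreted interferon acts back on the cells through its receptor and switches on genes that carry the interferon-stimulated response element (ISRE).

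The promoter sequences are shown first because the ISRE is the feature that the interferon-driven members could share apart from their signals. RefSeq promoter windows on build GRCm38.p6, each of 250 bases before and 50 after an annotated start, were at hand for 40 of the 53 genes, matched by current symbol. Both strands were searched for the ISRE core, taken as 2 GAAA blocks with 2 bases of any kind between them, which reads as 2 TTTC blocks on the other strand. The core was in at least 1 window of 8 of 13 interferon-driven members (61.5%) and of 2 of 27 other members (7.41%), while 1079 of the 27025 genes in the whole table (3.99%) had it. A match of letters is a description and not a binding site. The 8 interferon-driven genes were Parp11, Trim5, Trim12, Trim21, Trim26, Trim30, Trim34 and Trim79, and the 2 others were Parp4 and Trim2. Some of the 8 share sequence around the match, as given below, so they are not 8 separate cases. Windows of the interferon-driven members Parp12, Trim6, Trim25, Trim38 and Trim56 did not hold the core. No promoter was at hand for Parp9, Parp10, Parp14, Trim14, Trim3, Trim8, Trim11, Trim16, Trim33, Trim35, Trim36, Trim43c or Trim65. Below, the bases of each match are in capitals and all sequences read 5′ to 3′ on the strand of the gene. The first set gives 100 bases upstream of a start for the genes whose match lies there, with Parp4 as the member of the other set.
Trim79: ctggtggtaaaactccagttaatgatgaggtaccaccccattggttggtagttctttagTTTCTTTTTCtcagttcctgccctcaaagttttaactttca
Trim30: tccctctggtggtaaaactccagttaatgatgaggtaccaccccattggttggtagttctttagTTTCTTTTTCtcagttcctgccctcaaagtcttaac
Trim5: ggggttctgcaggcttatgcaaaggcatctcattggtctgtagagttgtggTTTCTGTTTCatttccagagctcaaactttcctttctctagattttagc
Parp11: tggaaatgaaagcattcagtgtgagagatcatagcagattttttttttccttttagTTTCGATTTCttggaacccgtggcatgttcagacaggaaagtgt
Trim26: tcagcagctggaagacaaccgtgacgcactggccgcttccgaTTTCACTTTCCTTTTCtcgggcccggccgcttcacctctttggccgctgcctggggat
Parp4: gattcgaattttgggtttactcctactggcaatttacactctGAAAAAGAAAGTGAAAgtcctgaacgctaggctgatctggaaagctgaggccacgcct

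These windows lie at chr7:104507850-104507949 (Trim79, minus strand), chr7:104465194-104465293 (Trim30, minus), chr7:104288107-104288206 (Trim5, minus), chr6:127446740-127446839 (Parp11, plus), chr17:36836944-36837043 (Trim26, plus) and chr14:56575427-56575526 (Parp4, plus). In Trim26 and Parp4 the capitals cover 2 overlapping matches. The first match began 41 bases before the start in Trim79, 36 in Trim30, 49 in Trim5, 44 in Parp11, 160 in Trim26 and 150 in Parp4. Aligned on the match without gaps, the Trim79 and Trim30 windows were identical at 94 of 95 bases. In 3 further genes of the interferon-driven list the match lay just after the annotated start, so only the 30 bases around it are given.
Trim12: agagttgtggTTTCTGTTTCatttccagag
Trim34: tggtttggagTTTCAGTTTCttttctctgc
Trim21: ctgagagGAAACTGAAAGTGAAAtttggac

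They lie at chr7:104315466-104315495 (Trim12, minus strand), chr7:104244457-104244486 (Trim34, plus) and chr7:102565447-102565476 (Trim21, minus). All 30 bases of the Trim12 stretch also stand in the Trim5 window. Trim12 was called higher after LPS and Trim5 was not, as given further on.

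Signals come from Agilent 1-colour whole-genome mouse arrays hybridised with RNA from bone marrow-derived macrophages, which are cells grown out of bone marrow and matured in culture. The marrow came from female C57BL/6 mice of 6 to 8 weeks, and the cells were differentiated for 7 days with medium conditioned by L929 cells. There were 4 groups of 3 arrays. Untreated cells received no LPS, and acute cells received LPS once for 4 h. Tolerant cells received LPS for 8 h, rested for 16 h and then received LPS for 4 h again. Recovered cells had the same first exposure and the same last 4 h, separated by a rest of 88 h in the sample descriptions and of 2 to 4 days in the protocol. No untreated or acute group is described as kept in culture for these added times. Differences of tolerant or recovered cells from those groups therefore cannot be told apart from time in culture. All groups share strain, sex and culture, and none carries a genetic change. The 3 replicates of a group are described as independent experiments, without saying whether each used separate animals, so the p-values measure the spread between these cultures only. Because whole cultures were measured, fewer responding cells and less RNA per cell cannot be told apart.

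Of 9 macrophage markers, 8 had a probe and all 8 were well above background in every group. Well above background on all 3 arrays of each group were 1 of 7 lymphocyte, 3 of 6 neutrophil and 2 to 3 of 6 dendritic cell markers. The dendritic cell marker Zbtb46 was higher than untreated by 5.33 in acute, 4.17 in tolerant and 5.34 in recovered cells. Ccr7, dim in untreated cells, had means of 3.2 untreated, 4.16 acute, 5.5 tolerant and 4.29 recovered. Siglech had means of 16.45 untreated, 16.56 acute, 16.47 tolerant and 16.54 recovered, and no array read Xcr1 well above background. The neutrophil markers S100a8 and Camp were higher than untreated by 2.62 and 2.27 in tolerant and by 1.5 and 1.66 in recovered cells. Camp was also higher by 0.88 in acute cells. The neutrophil marker Elane had means of 12.34 untreated, 12.33 acute, 12.02 tolerant and 12.52 recovered, and no array read S100a9 or Ngp well above background. The part of other cell types in the results was not tested. Between 47.7% and 54.9% of spots were well above background per array, and no spot was saturated. The number of arrays limits the precision. The median SD between arrays of a group was 0.284 on the log2 scale. Same-numbered arrays of different groups deviated together, and members whose call changes with the replicate number as a block are named.

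At 4 h after a first dose of LPS, the interferon-driven members split from the rest of both families. Of the 17, 14 rose, none fell and 3 were not called, with a median log2 difference of 2.40 (median of all genes tested 0.04). Among the 36 others 4 rose, 15 fell and 17 were not called, with a median of -0.51. Over all genes tested, 14.9% were called higher and 14.2% lower at an adjusted p under 0.05, so the 82.4% of interferon-driven members called higher and the 41.7% of other members called lower both lie above those shares. Because the list was not made blind to these data, the shares describe the split and do not test it. All 5 interferon-driven Parp genes rose.

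**Figure D1:**
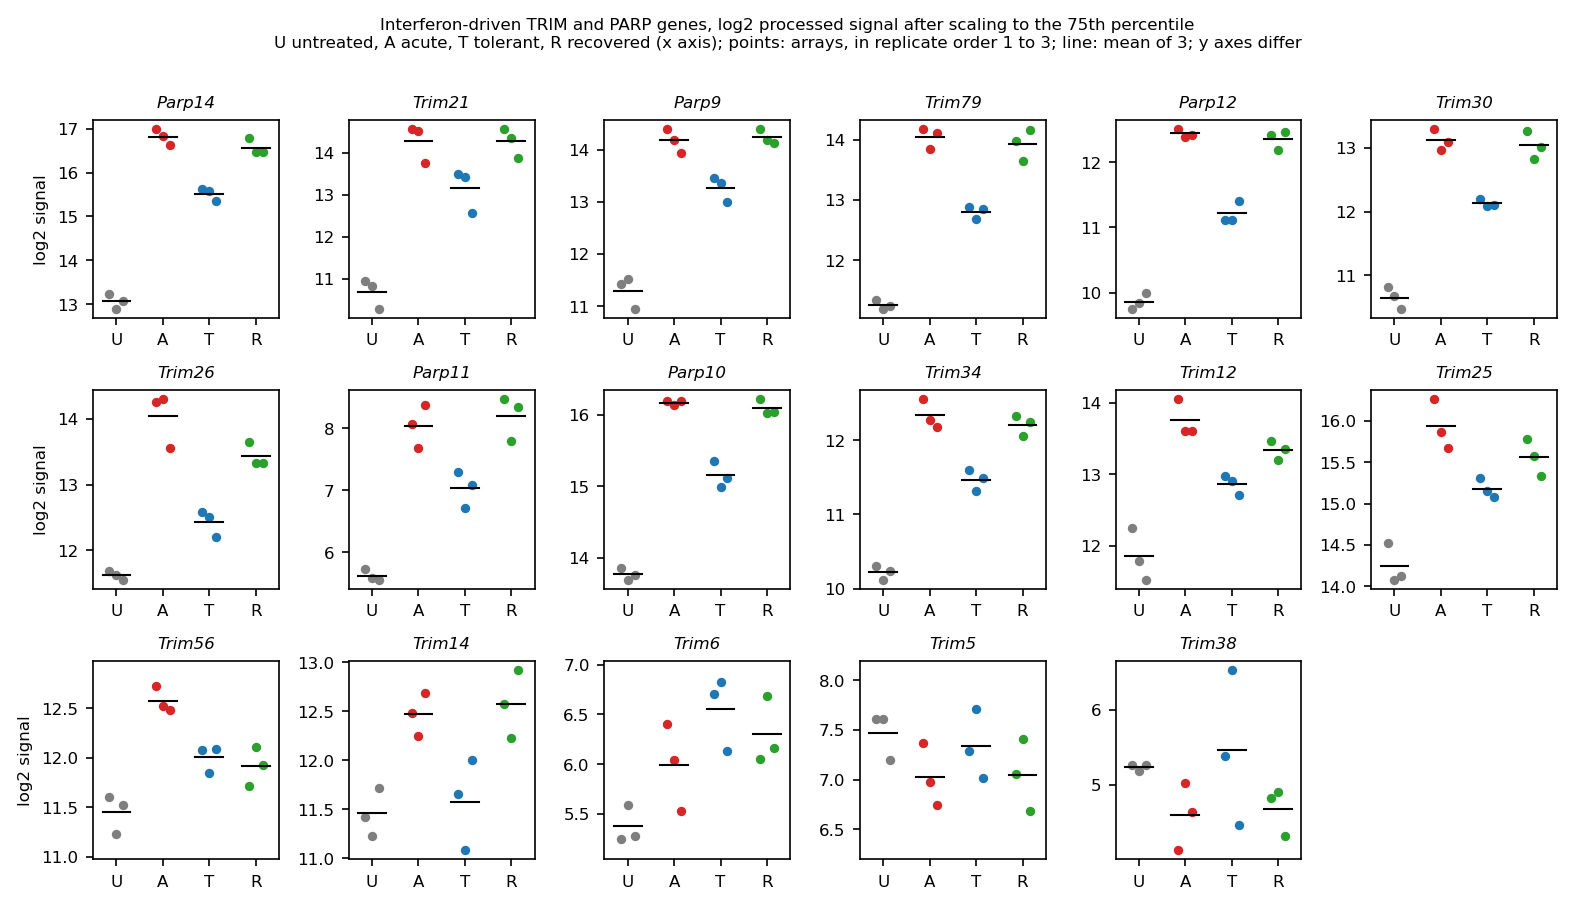
Log2 processed signal (y axis, separate scale per gene) of the 17 interferon-driven members on each of the 12 arrays by group (x axis), with the mean of 3 arrays as a line. In Parp14 the untreated arrays lie between 12.89 and 13.23 and the acute arrays between 16.63 and 17.00, the tolerant arrays fall between them, and Trim6, Trim5 and Trim38 show other orders.

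Parp14, a mono-ADP-ribosyltransferase known as a cofactor of STAT6, had log2 signals of 13.23, 12.89 and 13.08 untreated, 17.00, 16.83 and 16.63 acute, 15.63, 15.57 and 15.35 tolerant, and 16.78, 16.46 and 16.46 recovered. No array of one group overlapped another between untreated, tolerant and acute. The acute difference was 3.75 ± 0.16 (SE), a 13.5-fold rise with an adjusted p of 2.96e-08 (limma). Trim21, the cytosolic antibody receptor that marks antibody-coated virus for destruction, measured 10.96, 10.82 and 10.28 untreated, 14.57, 14.53 and 13.76 acute, 13.49, 13.44 and 12.58 tolerant, and 14.58, 14.36 and 13.89 recovered. Its rise was 12.1-fold (3.60 ± 0.31, adjusted p = 6.09e-06), and its replicate 3 was the lowest array in each group.

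Parp9, a partner of the ubiquitin ligase Dtx3l in the interferon response, measured 11.42, 11.52 and 10.94 untreated, 14.40, 14.19 and 13.94 acute, 13.45, 13.36 and 12.99 tolerant, and 14.39, 14.18 and 14.13 recovered. It rose 7.40-fold in acute cells (2.89 ± 0.20, adjusted p = 8.69e-07). Parp12, an interferon-induced inhibitor of translation, measured 9.75, 9.85 and 9.99 untreated, 12.51, 12.38 and 12.42 acute, 11.11, 11.12 and 11.41 tolerant, and 12.42, 12.18 and 12.46 recovered. Its acute rise was 5.96-fold (2.58 ± 0.14, adjusted p = 1.73e-07). In both genes the untreated arrays were lowest, the tolerant arrays stood apart in the middle, and the acute and recovered arrays overlapped.

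Parp10, a mono-ADP-ribosyltransferase, measured 13.85, 13.69 and 13.76 untreated, 16.19, 16.14 and 16.19 acute, 15.36, 14.99 and 15.11 tolerant, and 16.22, 16.03 and 16.04 recovered. It rose 5.29-fold after acute LPS (2.40 ± 0.14, adjusted p = 2.01e-07). Parp11, which modifies a ligase subunit that controls the interferon receptor Ifnar1, measured 5.73, 5.59 and 5.56 untreated, 8.07, 7.68 and 8.37 acute, 7.29, 6.72 and 7.09 tolerant, and 8.47, 7.79 and 8.34 recovered. Its acute rise was 5.32-fold (2.41 ± 0.23, adjusted p = 1.24e-05), and again the tolerant arrays lay between the untreated arrays and the other 2 groups without overlap.

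Of the Trim genes that rose, 5 (Trim12, Trim21, Trim30, Trim34 and Trim79) have their probes on chromosome 7, as do Trim3, Trim5, Trim6, Trim28 and Trim68. Trim79, now called Trim30d, measured 11.34, 11.19 and 11.25 untreated, 14.18, 13.85 and 14.11 acute, 12.89, 12.68 and 12.85 tolerant, and 13.98, 13.65 and 14.16 recovered, an acute rise of 6.90-fold (2.79 ± 0.16, adjusted p = 2.30e-07). Trim30, now Trim30a, a brake on Toll-like receptor signalling that removes Tab2 and Tab3, measured 10.81, 10.67 and 10.47 untreated, 13.30, 12.96 and 13.09 acute, 12.20, 12.09 and 12.10 tolerant, and 13.27, 12.83 and 13.02 recovered. Its acute rise was 5.51-fold (2.46 ± 0.16, adjusted p = 5.57e-07). In both genes the tolerant arrays lay above the untreated and below the acute and recovered arrays, an order that Trim34 and Trim12 share.

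Trim34, now Trim34a, measured 10.31, 10.12 and 10.24 untreated, 12.55, 12.27 and 12.18 acute, 11.60, 11.31 and 11.49 tolerant, and 12.32, 12.06 and 12.25 recovered, and rose 4.32-fold in acute cells (2.11 ± 0.15, adjusted p = 1.12e-06). Trim12, now Trim12a and related to primate TRIM5, measured 12.25, 11.79 and 11.52 untreated, 14.05, 13.61 and 13.60 acute, 12.98, 12.90 and 12.71 tolerant, and 13.46, 13.20 and 13.35 recovered, and rose 3.73-fold (1.90 ± 0.20, adjusted p = 2.75e-05). Trim5, whose primate relative blocks retroviral capsids, measured 7.61, 7.61 and 7.20 untreated, 7.37, 6.97 and 6.74 acute, 7.29, 7.71 and 7.02 tolerant, and 7.06, 7.41 and 6.68 recovered. Trim5 was not called (acute difference -0.45 ± 0.25, adjusted p = 0.223), and its groups overlapped, although its upstream window holds the same 30 bases as Trim12. With the replicate number as a block the acute difference of Trim5 was called lower (adjusted p = 0.0383), as was the recovered one of -0.42 (adjusted p = 0.0403, or 0.0503 with the slide as the block).

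Among members elsewhere in the genome, Trim26, a ligase acting on the signalling arm that leads to interferon, measured 11.68, 11.63 and 11.55 untreated, 14.26, 14.30 and 13.56 acute, 12.59, 12.50 and 12.20 tolerant, and 13.65, 13.33 and 13.33 recovered. It rose 5.35-fold in acute cells (2.42 ± 0.20, adjusted p = 4.74e-06). Trim25, which activates the RNA sensor Ddx58 (RIG-I), measured 14.52, 14.08 and 14.13 untreated, 16.26, 15.87 and 15.67 acute, 15.31, 15.15 and 15.08 tolerant, and 15.78, 15.58 and 15.33 recovered. Its acute rise was 3.23-fold (1.69 ± 0.19, adjusted p = 4.88e-05). Both genes had acute arrays above every tolerant array.

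Trim56, a ligase of the STING pathway, measured 11.60, 11.23 and 11.52 untreated, 12.72, 12.52 and 12.48 acute, 12.08, 11.85 and 12.09 tolerant, and 11.71, 12.11 and 11.93 recovered, an acute rise of 2.18-fold (1.12 ± 0.16, adjusted p = 2.73e-04). Trim14, an adaptor at the mitochondrial protein Mavs, measured 11.42, 11.23 and 11.72 untreated, 12.48, 12.25 and 12.68 acute, 11.65, 11.08 and 12 tolerant, and 12.57, 12.23 and 12.92 recovered. It rose 2.02-fold (1.01 ± 0.26, adjusted p = 0.0108), a call that ended with quantile normalization (0.81, adjusted p = 0.0532). Its tolerant arrays overlapped the untreated ones.

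The 2 other interferon-driven members without an acute call were Trim6 and Trim38. Trim6, which builds free ubiquitin chains that activate a kinase of the interferon pathway, measured 5.25, 5.59 and 5.28 untreated, 6.40, 6.04 and 5.53 acute, 6.71, 6.83 and 6.13 tolerant, and 6.05, 6.69 and 6.16 recovered. Its highest mean was in tolerant cells. The acute difference was 0.62 ± 0.26 (adjusted p = 0.110, or 0.0279 with the replicate block). Trim38, known to remove Ticam1, measured 5.27, 5.18 and 5.26 untreated, 4.13, 5.03 and 4.64 acute, 5.39, 6.53 and 4.47 tolerant, and 4.83, 4.91 and 4.32 recovered. Its probe was well above background on 2 of 3 arrays in each LPS group, and no comparison called it. In the authors' values Trim38 was called higher in tolerant than acute cells.

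**Figure D2:**
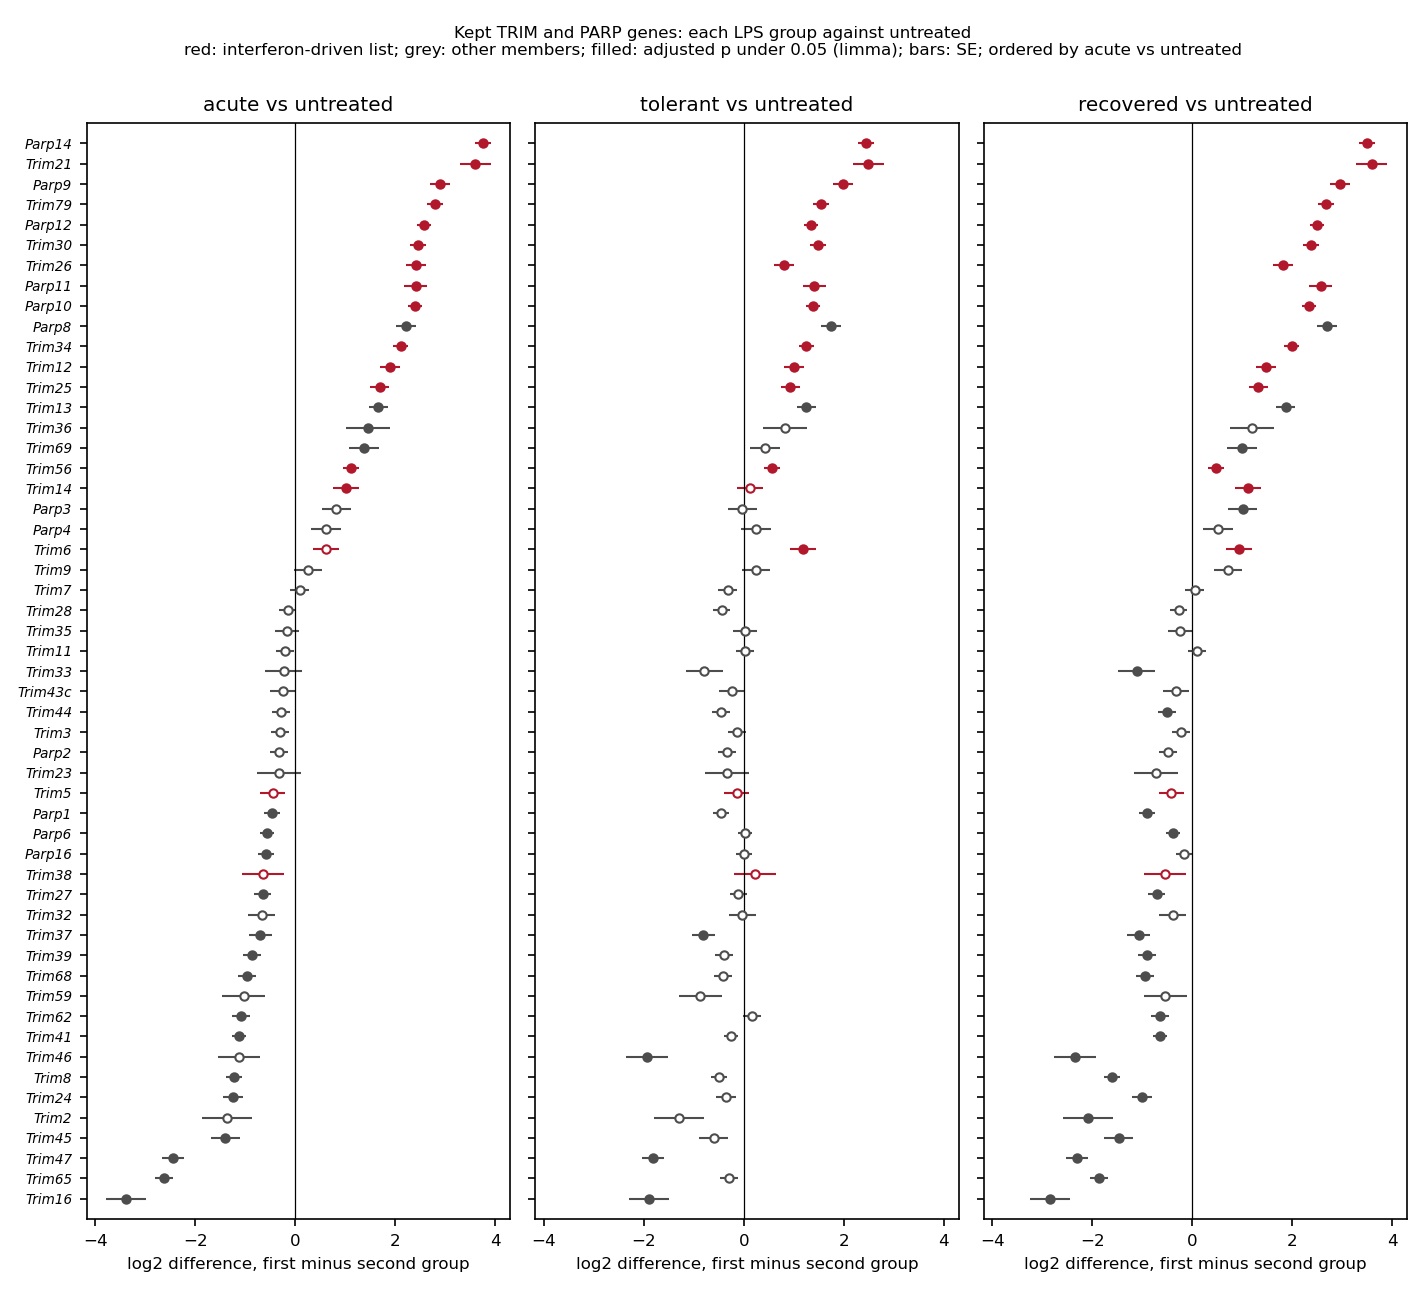
Log2 difference from untreated (x axis, shared scale, bars are SE) of the 53 kept genes (y axis, ordered by the acute difference) in acute, tolerant and recovered cells, with interferon-driven members in red and filled points for adjusted p under 0.05. The red points crowd the top, from 3.75 for Parp14 downwards, and the filled grey points at the bottom include Trim16 at -3.38 in acute cells.

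Outside the interferon list, 4 members rose in acute cells. Parp8, a mono-ADP-ribosyltransferase, measured 10.09, 9.93 and 9.42 untreated, 12.09, 11.73 and 12.24 acute, 11.67, 11.65 and 11.38 tolerant, and 12.52, 12.46 and 12.53 recovered. It rose 4.62-fold (2.21 ± 0.20, adjusted p = 7.02e-06). Trim13, a ligase anchored in the endoplasmic reticulum, measured 9.49, 9.43 and 8.91 untreated, 11.14, 10.98 and 10.71 acute, 10.47, 10.75 and 10.37 tolerant, and 11.06, 11.15 and 11.23 recovered, and rose 3.16-fold (1.66 ± 0.19, adjusted p = 4.71e-05). In both genes every LPS array lay above every untreated array, and the recovered mean was the highest. The promoter windows of Parp8 and Trim13 did not hold the ISRE core.

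Trim69 was not well above background on any untreated array (4.06, 4.29 and 4.03), and measured 5.33, 5.34 and 5.83 acute, 4.76, 4.14 and 4.74 tolerant, and 5.54, 4.36 and 5.47 recovered. Its acute level was at least 2.60-fold the untreated one, a bound set on each untreated array by the higher of its own signal and the dimmest signal well above background (adjusted p = 0.00500). Trim69 passed the filter through the acute group alone, in which it is highest, so its place among the 4 is partly set by the filter. Trim36, known for binding microtubules, measured 8.62, 8.56 and 7.12 untreated, 9.83, 9.92 and 8.93 acute, 9.30, 9.36 and 8.14 tolerant, and 9.29, 9.49 and 9.11 recovered, and rose 2.75-fold (1.46 ± 0.44, adjusted p = 0.0279). Its acute call ended without untreated 3 (0.97), acute 1 or acute 2, with adjusted p up to 0.0988, and without the filter on dim probes (adjusted p = 0.0559). With the replicate block Trim36 was also higher than untreated in tolerant (0.83, adjusted p = 0.0139) and recovered cells (1.20, adjusted p = 0.00125). Replicate 3 of Trim36 was the lowest array of its group throughout.

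The 15 members that fell in acute cells were all outside the interferon list. Among them were 11 of the 19 kept genes on the list of other TRIM ubiquitin ligases (57.9%, beside 14.2% of all genes). Trim16, a TRIM without a RING that takes part in clearing damaged membranes, measured 6.91, 7.00 and 7.26 untreated, 3.97, 2.72 and 4.35 acute, 5.67, 4.94 and 4.89 tolerant, and 3.66, 4.34 and 4.66 recovered. Untreated arrays were highest and tolerant arrays came next, and the probe was well above background on 1 acute array and no recovered array. The acute fall was 3.38 ± 0.40 on the log2 scale (adjusted p = 6.14e-05), and the untreated level was at least 6.13-fold the recovered one. With normexp background correction, whose added offset shrinks differences between dim probes, the acute difference of Trim16 was -1.19.

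Trim65, a ligase of the RNA sensor Ifih1 (MDA5), measured 6.08, 6.49 and 6.38 untreated, 3.59, 3.71 and 3.80 acute, 6.00, 6.09 and 6.00 tolerant, and 4.28, 4.82 and 4.24 recovered. The untreated and tolerant arrays overlapped, and both stood clear of the acute and recovered arrays. The probe was not well above background on any acute array, so the untreated level was at least 4.44-fold the acute one (adjusted p = 8.07e-07, and a difference of -0.71 after normexp correction). Trim47, a ubiquitin ligase, measured 11.26, 11.54 and 12.14 untreated, 9.15, 9.27 and 9.21 acute, 9.71, 9.88 and 9.90 tolerant, and 9.21, 9.66 and 9.16 recovered. It fell by 2.44 ± 0.22 on the log2 scale (adjusted p = 7.20e-06), and unlike Trim65 it stayed low in tolerant cells.

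Trim8, a ligase that modulates cytokine signalling and is read by 10 spots per array, measured 12.58, 12.33 and 12.14 untreated, 11.38, 11 and 11.01 acute, 11.81, 11.83 and 11.93 tolerant, and 10.68, 10.88 and 10.66 recovered. It fell by 1.22 ± 0.16 in acute cells (adjusted p = 1.46e-04), and its 4 groups did not overlap. Trim41 measured 14.41, 14.40 and 14.28 untreated, 13.21, 13.27 and 13.25 acute, 14.21, 14.27 and 13.86 tolerant, and 13.65, 13.83 and 13.66 recovered, and fell by 1.12 ± 0.14 (adjusted p = 1.08e-04). Trim62, a ligase of the adaptor Card9, measured 7.32, 6.97 and 7.44 untreated, 6.06, 5.94 and 6.5 acute, 7.25, 7.37 and 7.60 tolerant, and 6.64, 6.65 and 6.52 recovered, and fell by 1.08 ± 0.18 (adjusted p = 9.64e-04). The acute arrays of Trim41 and Trim62 lay below all arrays of the other groups.

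Trim24, Trim28 and Trim33 belong to the TIF1 group of chromatin cofactors, which repress transcription together with histone-modifying enzymes. Trim24 measured 9.59, 9.40 and 9.10 untreated, 8.32, 8.30 and 7.75 acute, 8.95, 9.15 and 8.91 tolerant, and 8.34, 8.61 and 8.12 recovered, and fell by 1.24 ± 0.20 in acute cells (adjusted p = 6.94e-04). Trim28, the corepressor of zinc finger proteins, measured 12.47, 12.26 and 12.51 untreated, 12.32, 12.11 and 12.36 acute, 11.92, 11.75 and 12.25 tolerant, and 12.13, 11.92 and 12.38 recovered. Trim28 was called in no comparison with the processing used throughout. Quantile normalization called it lower in tolerant than untreated cells, and the authors' values lower in acute, tolerant and recovered cells. With the replicate block, Trim28 was lower in tolerant (-0.44, adjusted p = 0.00662) and recovered cells (-0.27, adjusted p = 0.0428) than untreated. It was also lower in tolerant than acute cells with this block (-0.29, adjusted p = 0.0367). With the slide as the block the recovered difference was not called (adjusted p = 0.137). Of the 3 kept TIF1 genes, 1 fell in acute, none in tolerant and 2 in recovered cells, where 14.2%, 8.02% and 16.7% of all genes were called lower, and 3 genes are too few to set against those shares.

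The acute falls of Trim45, Trim37 and Trim27 were smaller than that of Trim47. Trim45 measured 7.08, 6.91 and 7.43 untreated, 5.93, 5.12 and 6.16 acute, 6.75, 6.19 and 6.69 tolerant, and 5.58, 5.32 and 6.11 recovered (acute fall of 1.40 ± 0.29, adjusted p = 0.00368). Trim37, a ligase of centrosomes and peroxisomes, measured 7.78, 7.73 and 7.63 untreated, 7.13, 7.21 and 6.72 acute, 7.20, 7.09 and 6.41 tolerant, and 6.71, 6.89 and 6.35 recovered. Its acute call (-0.70 ± 0.23, adjusted p = 0.0395) ended without any of 7 single arrays (all 6 arrays compared and recovered 1, with values from -0.79 to -0.55) and with quantile normalization, normexp correction or no filter. Trim27, a ligase that acts on endosomal sorting, measured 12.82, 12.47 and 12.39 untreated, 12.06, 11.94 and 11.74 acute, 12.43, 12.53 and 12.40 tolerant, and 11.76, 12.10 and 11.69 recovered (acute fall of 0.65 ± 0.17, adjusted p = 0.0120). The replicate block also called 3 members higher in acute cells (Parp3 by 0.82, Parp4 by 0.62, and Trim6) and 5 lower (Trim2 by -1.37, Trim32 by -0.67, Trim46 by -1.12, Trim59 by -1.03, and Trim5).

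**Figure D3:**
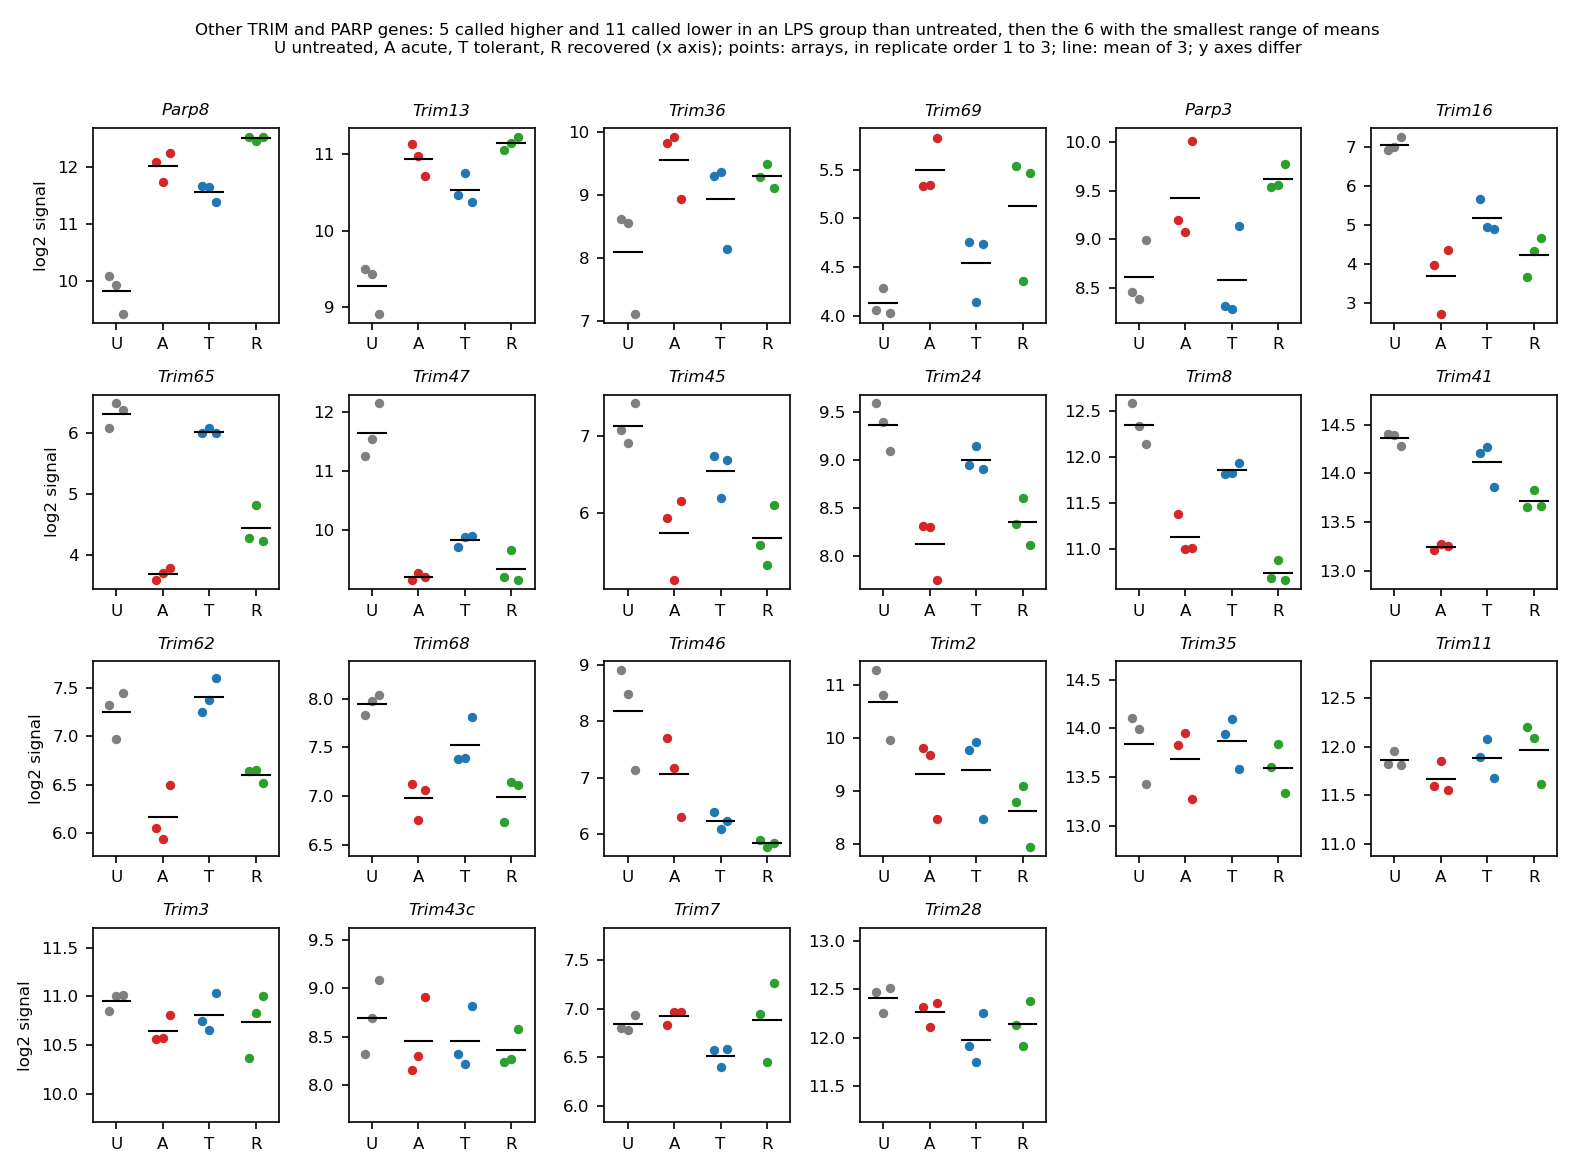
Log2 processed signal (y axis, separate scale per gene) of 22 members outside the interferon list on each array by group (x axis), with the mean of 3 arrays as a line. Trim65 is near 6 in untreated and tolerant cells and near 3.70 in acute cells, Trim46 declines from untreated to recovered, and the last 6 genes are those with the smallest range of group means.

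In tolerant cells, where the second dose followed a short rest, 14 of the 17 interferon-driven members were above untreated, with a median difference of 1.25 (all genes tested 0). Over all genes, 11.6% were called higher and 8.02% lower. Parp14 was 5.46-fold above untreated (2.45 ± 0.16, adjusted p = 1.85e-06) and Trim21 5.60-fold (2.49 ± 0.31, adjusted p = 2.26e-04). Trim6, not called in acute cells, was 2.28-fold higher (1.19 ± 0.26, adjusted p = 0.00815), and Trim14 was not called (0.12 ± 0.26, adjusted p = 0.813). Calls above untreated ended for Trim26 without tolerant 1 or tolerant 2 (0.73 and 0.78, from 0.81), and for Trim56 without untreated 2 or 3 or tolerant 1 or 3 (0.45 to 0.59, from 0.56). The Trim56 call also ended with quantile normalization (0.41) and without the filter.

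Of the other 36 members, 2 (Parp8 and Trim13) were higher and 4 (Trim16, Trim37, Trim46 and Trim47) lower in tolerant than in untreated cells, with a median of -0.31. Trim46, which organises microtubules at the base of axons, measured 8.91, 8.48 and 7.14 untreated, 7.71, 7.17 and 6.30 acute, 6.39, 6.08 and 6.23 tolerant, and 5.89, 5.77 and 5.84 recovered. It fell by 1.94 ± 0.42 in tolerant cells (adjusted p = 0.00715), and no tolerant array reached an untreated one. Trim47 was 1.82 ± 0.22 lower (adjusted p = 1.49e-04) and Trim16 1.89 ± 0.40 lower (adjusted p = 0.00571). The Trim37 call (-0.81) ended without any 1 untreated array or tolerant 3 (-0.85 to -0.57), with quantile normalization and without the filter. The number of members called lower was 15 with the replicate block instead of 4, the added ones being Parp1, Trim2, Trim8, Trim24, Trim28, Trim33, Trim39, Trim44, Trim45, Trim59 and Trim68, with differences of -1.30 to -0.36.

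A direct comparison of tolerant with acute cells sets cells with an earlier dose and a short rest against cells given LPS once, both after the same last 4 h. It does not separate the earlier dose from the rest. Of the 17 interferon-driven members, 14 were lower in tolerant cells, none higher, and the median was -0.91 (all genes tested -0.05). All 5 interferon-driven Parp genes were among them, from -1.30 for Parp14 to -0.91 for Parp9. Over all genes 10.7% were called lower and 11.8% higher, beside 82.4% of the interferon-driven members called lower. This comparison shares the acute arrays with the one against untreated, and the members' values in each are set side by side without counting overlaps.

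Trim26 was 3.05-fold lower in tolerant than in acute cells (-1.61 ± 0.20, adjusted p = 3.45e-04), Parp14 2.47-fold (-1.30 ± 0.16, adjusted p = 3.08e-04) and Trim79 2.36-fold (-1.24 ± 0.16, adjusted p = 3.89e-04). Parp12 was 2.34-fold lower (-1.22 ± 0.14, adjusted p = 2.16e-04), and Trim21 2.17-fold (-1.12 ± 0.31, adjusted p = 0.0258). The 3 interferon-driven members without this call were Trim5, Trim6 and Trim38. Trim25 was lower by its brightest probe (-0.76, adjusted p = 0.0161) but not by the mean of its 2 probes (-0.09, adjusted p = 0.763), since the dimmer probe read 0.58 with no call. Parp8 (-0.46, adjusted p = 0.120) and Trim13 (-0.41, adjusted p = 0.144, or 0.0498 with the block) were not called.

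Leaving out single arrays ended 4 of these interferon-driven calls: Trim14 (-0.93 to -0.65 without acute 1 or 3 or tolerant 1 or 2), Trim21 (-1 to -0.82 without acute 1 or 2 or tolerant 3), Trim25 (-0.74 to -0.59 without acute 1 or tolerant 2 or 3) and Trim56 (-0.60 to -0.49 without acute 1 or 2 or tolerant 1 or 2). The Trim14 call ended with quantile normalization (adjusted p = 0.0592) and with the mean of its probes (adjusted p = 0.106), and the calls of Trim14, Trim21 and Trim56 ended without the filter on dim probes.

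Outside the interferon list, 10 members stood higher in tolerant than in acute cells and 1 (Trim69) lower, with a median of 0.12. Trim65 was at least 3.63-fold higher (adjusted p = 2.33e-05, difference 0.59 after normexp correction), Trim62 was 2.36-fold higher (1.24 ± 0.18, adjusted p = 8.87e-04), Trim24 1.85-fold (0.88 ± 0.20, adjusted p = 0.00952), Trim41 1.83-fold (0.87 ± 0.14, adjusted p = 0.00143) and Trim8 1.65-fold (0.72 ± 0.16, adjusted p = 0.00829). These 5 are ubiquitin ligases or cofactors of the TRIM family whose values against untreated are given above. Trim16, measured above background on 1 of 3 acute arrays, differed by 1.48 ± 0.40 (adjusted p = 0.0202), and its second probe by 0.79 with no call. The call of the first probe ended with normexp correction (0.25, adjusted p = 0.230) and without acute 2 (1.00) or tolerant 1 (1.23). The calls of Trim27 and Trim69 ended when any of 7 and 9 single arrays was left out (Trim27 0.45 to 0.57, adjusted p up to 0.117, and Trim69 -1.06 to -0.75, adjusted p up to 0.155). For Trim27 these were untreated 2, acute 2 and 3, all tolerant arrays and recovered 1, and for Trim69 all untreated, acute and tolerant arrays. The Trim69 call also ended with quantile normalization, normexp correction (-0.39), the intensity trend and no filter, and that of Trim27 without the filter. Without acute 2, 6 members in place of 10 were called higher. The replicate block added Trim6, Trim32, Trim39, Trim45 and Trim47 on the higher and Parp3, Trim13, Trim28, Trim33 and Trim36 on the lower side.

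**Figure D4:**
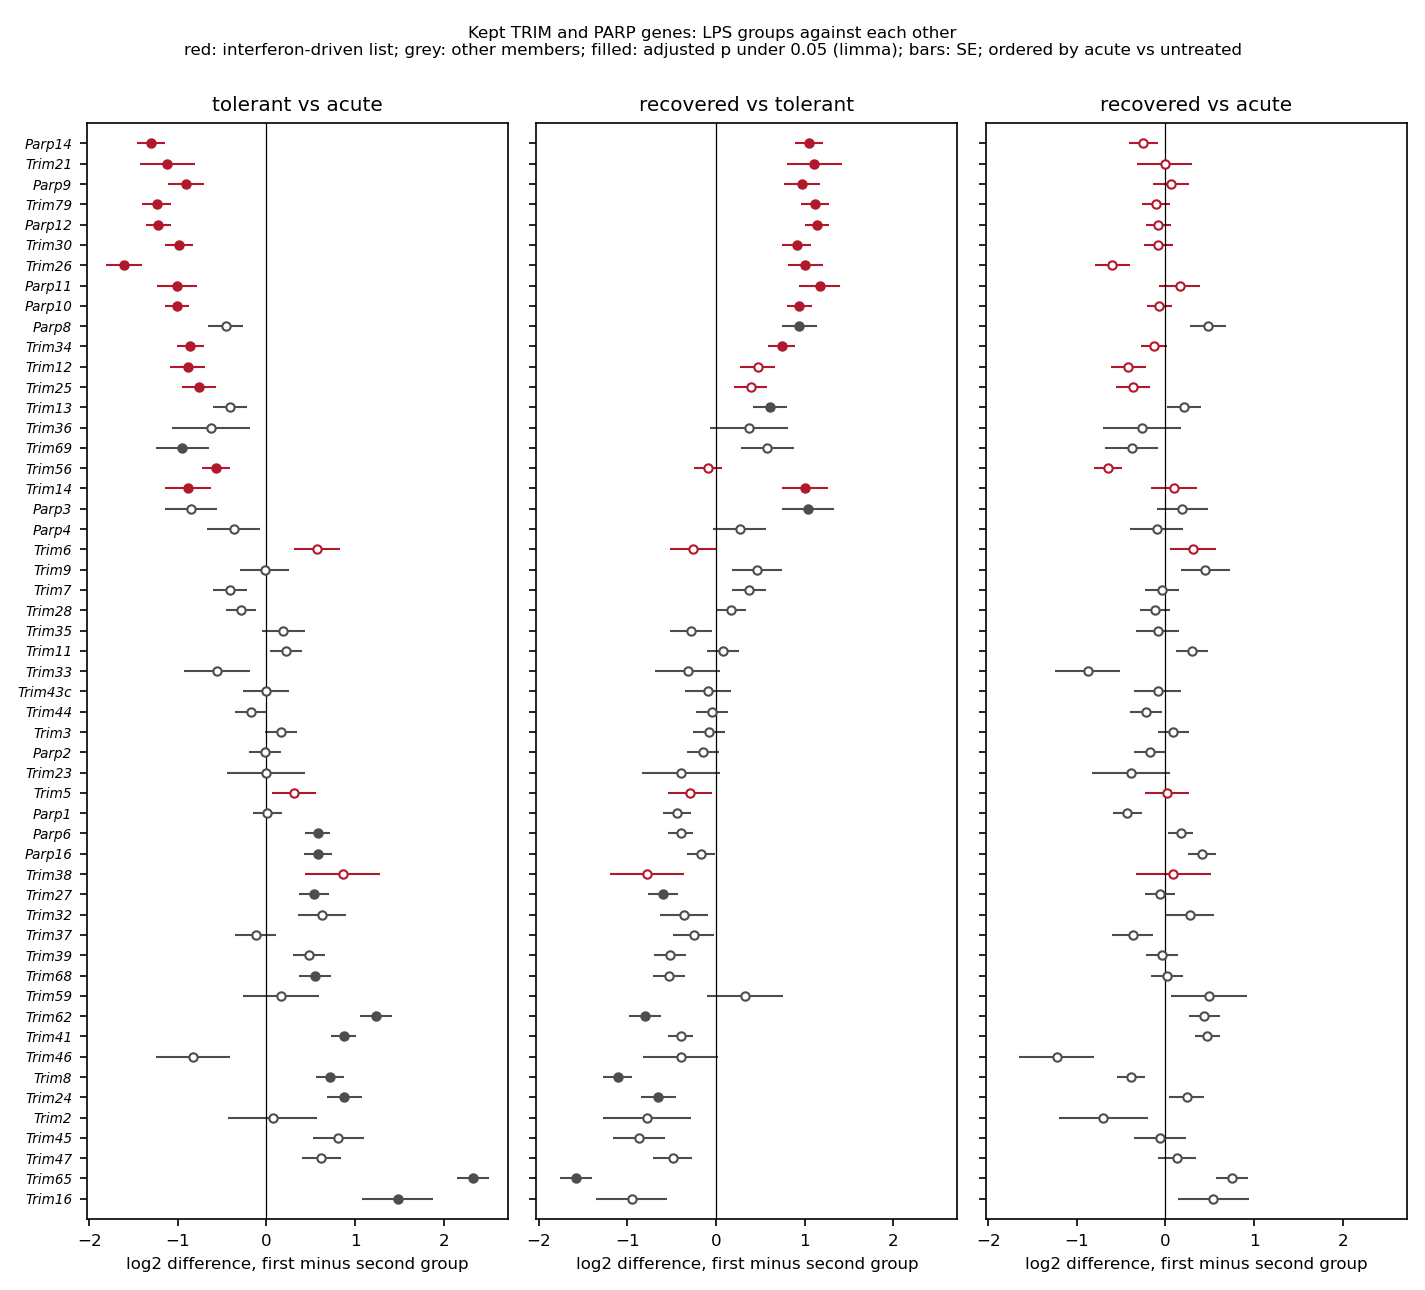
Log2 difference between LPS groups (x axis, first minus second group, shared scale, bars are SE) of the 53 kept genes, in the order of the acute response, with interferon-driven members in red and filled points for adjusted p under 0.05. Filled red points lie left of 0 in tolerant against acute cells, down to -1.61 for Trim26, and right of 0 in recovered against tolerant cells, and no point is filled in recovered against acute cells.

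In recovered cells, where the rest was longer, 15 of the 17 interferon-driven members were above untreated, with a median of 1.99 (all genes tested 0.06). Over all genes 18.7% were called higher and 16.7% lower. Trim21 was 12.1-fold above untreated (3.59 ± 0.31, adjusted p = 6.02e-06), Parp14 11.3-fold (3.5 ± 0.16, adjusted p = 4.27e-08), Parp9 7.71-fold (2.95 ± 0.20, adjusted p = 7.36e-07) and Trim79 6.37-fold (2.67 ± 0.16, adjusted p = 3.02e-07). Parp8 stood 6.45-fold above untreated (2.69 ± 0.20, adjusted p = 1.36e-06) and Trim13 3.65-fold (1.87 ± 0.19, adjusted p = 1.81e-05). The log2 of the summed signals of 7 stromal and erythroid markers ran from 15.11 to 15.64 in recovered arrays. It was 12.60 to 13.69 untreated, 13.05 to 14.02 acute and 13.54 to 14.64 tolerant. Of these markers, 3 were above background in every group, while Col1a1 and Pdgfra were not above background on any array. Their part in the recovered values was not tested. Among these markers Pf4 was higher than untreated by 2.39. Its recovered arrays read 15.11, 15.3 and 15.63, so Pf4 alone makes up nearly all of the sum. Col1a2 and Hba-a1 had recovered means of 6.39 and 5.69 and were not called against untreated.

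The Trim56 call in recovered cells (0.47 ± 0.16, adjusted p = 0.0411) ended with quantile normalization (0.32), normexp correction (0.40), the authors' values (0.33), no filter, and when any of 7 single arrays was left out (untreated 2 and 3, acute 2, tolerant 1 and 3, recovered 2 and 3, with values of 0.36 to 0.50). The Trim6 call (0.93 ± 0.26, adjusted p = 0.0177) ended without untreated 1 or recovered 2 (0.87 and 0.73) and with quantile normalization (0.83). That of Trim69, at least 2.00-fold, ended without untreated 1 or 3 or recovered 1 or 3 (0.79 to 0.97), with quantile normalization (0.82) and in the authors' values (0.44).

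Among the 36 other members, 4 were higher and 18 lower in recovered than in untreated cells (median -0.52). Trim46 was 2.34 ± 0.42 lower (adjusted p = 0.00119) and Trim8 1.61 ± 0.16 lower (adjusted p = 1.66e-05). Trim2, a neuronal ligase of neurofilament, measured 11.29, 10.82 and 9.96 untreated, 9.81, 9.68 and 8.46 acute, 9.78, 9.92 and 8.47 tolerant, and 8.80, 9.10 and 7.94 recovered. Its recovered difference of -2.08 ± 0.50 was called (adjusted p = 0.00739), while the acute (-1.37, adjusted p = 0.0628) and tolerant ones (-1.30, adjusted p = 0.0993) were not. Both of these were called with the replicate block, with the slide block and in the authors' values. Quantile normalization and normexp correction also called the acute one. Replicate 3 was the lowest Trim2 array of each group.

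Parp3, which acts at DNA breaks, measured 8.46, 8.39 and 8.99 untreated, 9.20, 9.08 and 10.01 acute, 8.32, 8.28 and 9.14 tolerant, and 9.54, 9.56 and 9.77 recovered. It was 2.01-fold above untreated in recovered cells (1.01 ± 0.29, adjusted p = 0.0192), a call that ended without untreated 1 or 2 or recovered 3 (0.90 to 0.94). Trim62 was 0.64 ± 0.18 lower (adjusted p = 0.0187), which ended without untreated 1 or 3 or recovered 3 (-0.60 to -0.54). Of the 3 DNA damage genes, Parp1, the main producer of ADP-ribose chains at DNA breaks, was lower in acute (-0.47, adjusted p = 0.0414, a call that ended without the filter on dim probes) and recovered cells (-0.90, adjusted p = 8.86e-04), and Parp2 was called in no comparison (recovered -0.49, adjusted p = 0.0516, or 0.00787 with the block). Besides Parp2, the block added Parp4, Trim9 and Trim36 on the higher and Trim5, Trim23, Trim28, Trim43c and Trim59 on the lower side of the recovered comparison.

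Recovered and tolerant cells had the same 2 doses and differed in the rest between them. The longer rest cannot be told apart from the longer time in culture that came with it. Of the 17 interferon-driven members 11 were higher in recovered cells, none lower, and the median was 0.94 (all genes tested 0.07). Over all genes 10.6% were called higher and 9.98% lower. Parp11 was 2.24-fold higher (1.17 ± 0.23, adjusted p = 0.00533), Parp12 2.21-fold (1.14 ± 0.14, adjusted p = 4.63e-04), Trim79 2.18-fold (1.12 ± 0.16, adjusted p = 9.41e-04), Parp14 2.07-fold (1.05 ± 0.16, adjusted p = 0.00150) and Trim26 2.01-fold (1.01 ± 0.20, adjusted p = 0.00618). Trim12 (0.47) and Trim25 (0.39) were not called without a block. They were called with the replicate block (adjusted p = 0.0163 and 0.0156) and the slide block (adjusted p = 0.00699 and 0.0125). The authors' values also called Trim12, and the mean of the probes Trim25. Trim56 was not called, its recovered arrays overlapping the tolerant ones.

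Other members higher in recovered than in tolerant cells were Parp8 (0.94 ± 0.20, adjusted p = 0.00710), Parp3 (1.04 ± 0.29, adjusted p = 0.0282) and Trim13 (0.61 ± 0.19, adjusted p = 0.0404). Those lower were Trim65 (-1.58 ± 0.18, adjusted p = 2.55e-04), Trim8 (-1.11 ± 0.16, adjusted p = 0.00101), Trim62 (-0.80 ± 0.18, adjusted p = 0.0115), Trim24 (-0.65 ± 0.20, adjusted p = 0.0435) and Trim27 (-0.60 ± 0.17, adjusted p = 0.0268). The Trim65 probe was well above background on 1 recovered array, and its call ended with normexp correction (-0.30, adjusted p = 0.114). A second Trim65 probe was not called here (-0.96, adjusted p = 0.16) or in recovered against untreated cells (-0.75, adjusted p = 0.233). The number called lower was 12 with the replicate block, the added members being Parp1, Parp6, Trim2, Trim39, Trim41, Trim45 and Trim68, and it was 3 without tolerant 2 or without recovered 1.

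Single arrays ended 6 of the calls between recovered and tolerant cells. These were Trim21 (0.81 to 1.06 without tolerant 3 or recovered 1 or 2), Trim14 (0.75 to 1.00 without tolerant 2 or recovered 1 or 3), Parp3 (0.89 to 1.09 without tolerant 1 or 2 or any recovered array) and Trim13 (0.53 to 0.66 without untreated 2, acute 2, tolerant 1 or 3 or any recovered array). Trim24 lost its call without untreated 2, acute 2, any tolerant array or recovered 1 or 3 (-0.69 to -0.53), and Trim27 without any tolerant array or recovered 1 or 3 (-0.63 to -0.52). No filter on dim probes ended the calls of Trim21, Parp3, Trim13, Trim24 and Trim27, and the mean of the probes those of Trim14 (0.84) and Trim13 (0.55).

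Between recovered and acute cells no member of either family was called, while 1.34% of all genes were called higher and 0.572% lower in recovered cells (limma). The medians were -0.08 for the interferon-driven and -0.04 for the other members. Without adjustment, 11 of the 53 had p under 0.05: Parp8, Parp16, Trim41, Trim62 and Trim65 on the higher side and Parp1, Trim8, Trim26, Trim33, Trim46 and Trim56 on the lower. The lowest adjusted p was 0.0602, for Trim65, whose probe was well above background on no acute array and 1 recovered array, so that its recovered level was at least 1.21-fold the acute one. With the replicate block Trim41 (0.47, adjusted p = 0.0260) and Trim65 (at least 1.21-fold, adjusted p = 0.0105) were higher and Trim2 (-0.70), Trim26 (-0.60), Trim33 (-0.88), Trim46 (-1.23) and Trim56 (-0.65) lower in recovered than in acute cells. The slide as a block did not call Trim26 (adjusted p = 0.0505) or Trim46 (adjusted p = 0.0748). A missed threshold with 3 arrays a group does not show that the groups were alike.

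**Figure D5:**
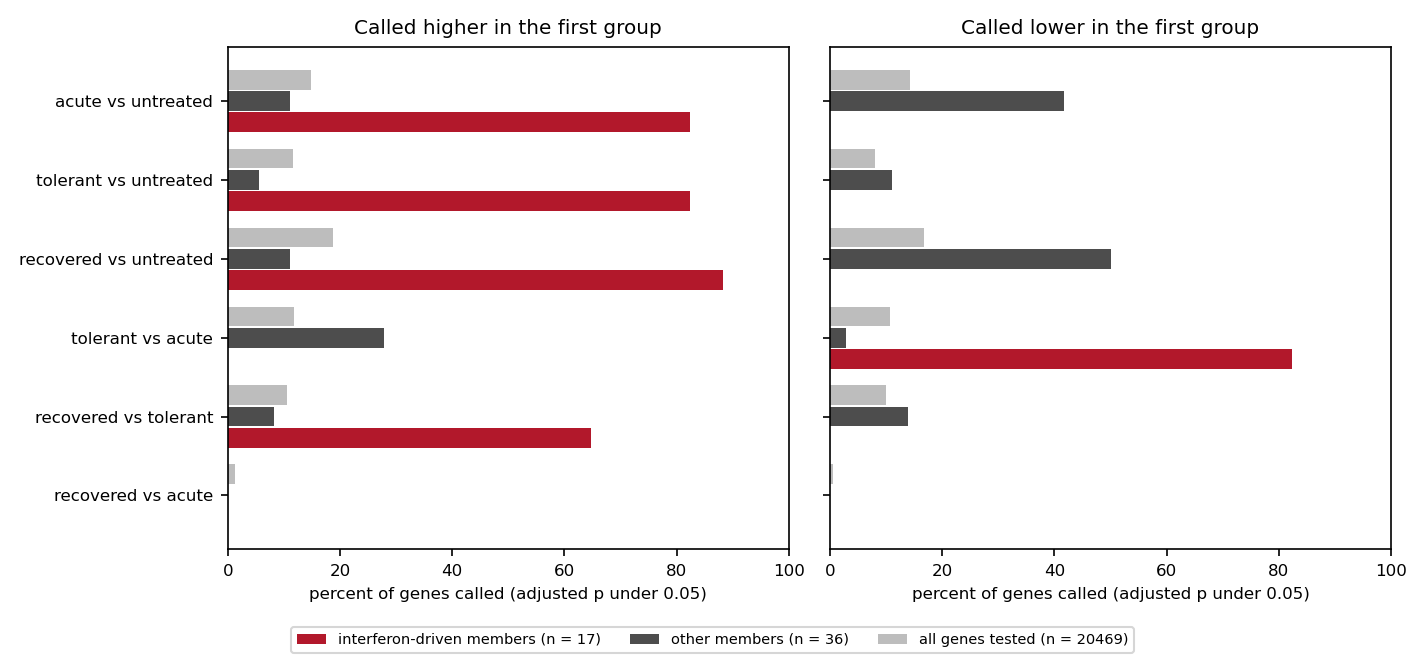
Share of genes called higher (left) and lower (right) at an adjusted p under 0.05 (x axis, percent) in each of the 6 comparisons (y axis) for the 17 interferon-driven members, the 36 other members and all 20469 genes tested. The interferon-driven bar reaches 82.4% on the lower side only in tolerant against acute cells, and both members' bars are at 0 in recovered against acute cells.

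The 14 members called in no comparison were Parp2, Parp4, Trim3, Trim5, Trim7, Trim9, Trim11, Trim23, Trim28, Trim32, Trim35, Trim38, Trim43c and Trim59. With the replicate block, 9 of these were called in 1 or more comparisons: Parp2, Parp4, Trim5, Trim9, Trim23, Trim28, Trim32, Trim43c and Trim59. The authors' values called Trim3 and Trim35 lower in acute and recovered than untreated cells, and Trim35 lower in recovered than tolerant cells. They called Trim38 higher in tolerant than acute cells. Quantile normalization also called Trim35 lower in recovered than untreated cells. The share of all genes called in no comparison was not counted, so the 14 cannot be set against it. Taking the 6 other members with the smallest range of the 4 group means, Trim35 had means of 13.85, 13.68, 13.88 and 13.59 in untreated, acute, tolerant and recovered cells, each with an SD between 0.25 and 0.36. Trim11 had means of 11.87, 11.67, 11.89 and 11.97, with SDs of 0.09 to 0.31. Trim3, a neuronal relative of Trim2, had means of 10.96, 10.65, 10.81 and 10.73, with SDs of 0.09 to 0.33. The arrays of any 2 groups overlapped in Trim35 and Trim11. Trim43c had means of 8.70, 8.46, 8.45 and 8.36. Its recovered difference of -0.33 was called with the replicate block (adjusted p = 0.0407) and the slide block (adjusted p = 0.0186). Trim7 had means of 6.84, 6.93, 6.52 and 6.89, the tolerant mean being the lowest without a call. Trim28 is given above.

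Outside the names Trim and Parp, the families have members under other names, and 7 of 8 such genes on the list were measured. Of the 7, 5 rose in acute cells: Pml (2.42), which forms nuclear bodies, Mefv (2.55), the inflammasome sensor pyrin, Mid1 (2.40), which binds microtubules, Tiparp (3.08), a mono-ADP-ribosyltransferase, and Zc3hav1 (2.01), the antiviral RNA-binding protein ZAP. Over all genes tested, 14.9% were called higher in acute cells. In tolerant against acute cells Mid1 (-1.96), Tiparp (-1.65), Pml (-1.54) and Zc3hav1 (-1.11) were lower, beside 10.7% of all genes. In recovered against tolerant cells Mid1 was higher by 1.63, Pml by 1.31, Tiparp by 1.23 and Zc3hav1 by 1.04, beside 10.6% of all genes. Mefv was not called between LPS groups and had its largest difference from untreated in recovered cells (4.10). The tankyrases Tnks and Tnks2, which build ADP-ribose chains, were called in no comparison. Beside them stand 3 genes that the array lists under older names and that are now Trim12c, Trim30b and Trim30c: in acute cells they were higher by 2.14, 2.70 and 6.56.

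Among 14 known partners and targets of these proteins, 9 rose in acute cells, 1 fell and 4 were not called (median 1.38), beside 14.9% of all genes called higher and 14.2% lower. Ddx58, the sensor that Trim25 acts on, rose by 3.12 ± 0.19 and was -1.25 in tolerant against acute cells. Ifih1, the sensor that Trim65 acts on, rose by 5.30 and was -2.36 in tolerant against acute cells. Dtx3l, the partner of Parp9, rose by 2.78, was -1.05 in tolerant against acute cells and 1.04 in recovered against tolerant cells. Mavs, the adaptor below both sensors, fell by 1.04 in acute cells and was 0.71 higher in tolerant than acute cells. Tab2, a target of Trim30, rose by 0.94 in acute cells, and Tab3, Ticam1 and Traf6 were not called in any comparison. Of 6 genes that read or remove ADP-ribose, none rose in any LPS group against untreated. Called lower were 2 in acute, 1 in tolerant and 2 in recovered cells, beside 14.2%, 8.02% and 16.7% of all genes. The lowest differences among the 6 were -0.94, -1.03 and -1.15 in the same order. Macrod2 was lower in acute (-0.80), tolerant (-1.03) and recovered cells (-0.72). These 6 genes are too few to set against those shares.

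Of 10 interferon signalling genes, 8 rose in acute cells and 1, the receptor chain Ifnar1, fell (-0.86). Over all genes tested, 14.9% were called higher and 14.2% lower there. Ifnb1, interferon beta itself, was not well above background on any untreated array and was at least 981-fold higher in acute cells. It was 34.1-fold lower in tolerant than acute cells (-5.09 ± 0.64) and 10.2-fold higher in recovered than tolerant cells (3.36 ± 0.64). Stat2 (-0.84), Irf9 (-0.51) and Irf1 (-2.13) were lower in tolerant than acute cells, whereas Irf7 (0.27) was not called there. Ifnar1 was 1.35 higher in tolerant than in acute cells.

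The kept probes place the chromosome 7 genes, on build mm9, in the order Trim6 (chr7:111382909-111382968), Trim34 (chr7:111410513-111410572), Trim5 (chr7:111412427-111412486), Trim12 (chr7:111448499-111448558), Trim30 (chr7:111557578-111557637) and Trim79 (chr7:111620805-111620864), with Trim21 at chr7:109706478-109706537. Next to Trim21 lies Trim68 (chr7:109826347-109826406), which fell by 0.97 in acute cells (adjusted p = 0.00152), and Trim3 (chr7:112759222-112759281) and Trim28 lie elsewhere on the chromosome. From Trim6 to Trim79, the acute differences were 0.62, 2.11, -0.45, 1.90, 2.46 and 2.79, so the uncalled Trim5 sits between members that rose. The genes of this stretch are close copies of one another, and a probe may read more than 1 of them, so values for Trim12, Trim30, Trim34 and Trim79 are uncertain as values of single genes. Parp14 (chr16:35832992-35833051) and Parp9 (chr16:35972577-35972636) also lie near each other.

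Of the 53 members, 33 were read by 1 probe above background and 20 by several. No member had probes called in opposite directions in a comparison, and 11 had 1 probe called and another not in at least 1 comparison. For Parp9 the second probe gave an acute difference of 3.53 beside 2.89, for Trim65 -1.33 beside -2.62, and for Trim45 -2.51 beside -1.40. In tolerant against untreated cells the second Trim45 probe was lower (-2.58), while the kept one was not called (-0.60).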

How the data were processed

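The 12 Agilent 1-colour arrays, 3 for each of 4 groups, were read from the deposited scanner output, in which the authors' processed signal is an intensity per spot (Feature Extraction 10.7.3.1, per the file headers). The deposited value table holds the authors' own log2 values, and the submitters' processing notes name limma without a version. Its normalization is not given in the sources used here. The members and gene lists were chosen with earlier results of these data known.

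Spots of a probe were averaged after control spots and outlier spots (135 to 233 per array) were left out. Signals were taken to log2, and each array's 75th percentile was subtracted and the mean of the 12 added back. A gene was read by its brightest probe and tested when that probe was well above background on all 3 arrays of a group. One fit of 4 group means over 12 arrays used lmFit and eBayes (limma 3.58.1, R 4.3.3, 8 residual degrees of freedom), 2-sided, with Benjamini-Hochberg adjustment over 20469 genes in each of 6 comparisons, called at an adjusted p under 0.05. The fit recovered known changes when tested on simulated data. For the fit without a block, the simulated arrays varied independently, and the changes were larger than many of those called here. Smaller changes were not simulated. Members were named by a rule: all 17 on the interferon list, then in each comparison up to 6 other members called higher and 6 called lower with the largest difference, and the 6 with the smallest range of means. Lists are described by counts and medians, with no set test. Members called only in an alternative, Trim68, and the 3 genes under older names, were named after their values were seen.

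Same-numbered arrays deviated together over all genes: 18 of 18 pairs of arrays from different groups correlated above 0.1 (median 0.451, 0.276 to 0.775), against a median of -0.369 for 36 pairs with different numbers. The pairing rests on the labels' replicate numbers and on this check. There were 3 slides and 2 scan days, and all replicate 3 arrays were on the third slide and the second day. Alternatives were quantile normalization, normexp correction with an offset of 50, the authors' values, no filter, the mean of a gene's probes, the replicate number or the slide as a block, an intensity trend, and leaving out each array. The promoter motif was searched with Python 3 code in RefSeq windows. Some genes of the lists are not reported here.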

Additional observations from a re-analysis of the deposited data

How the results depend on the processing

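Of 120 calls of the 40 named members, none changed direction in any of the 8 alternatives with all arrays or when 1 array was left out. The replicate block and the slide block ended none of them, the intensity trend 1, the authors' values 2, the mean of the probes 4, normexp correction 5, quantile normalization 9 and no filter on dim probes 15, and single left-out arrays 4 to 12. Counts of members moved more. The number called lower in tolerant than untreated cells was 4, and 8 with quantile normalization, 16 in the authors' values, 15 with the replicate block and 16 with the slide block. For recovered against tolerant cells the 5 called lower became 9, 13, 12 and 13 in the same order, and the authors' values gave 25 in place of 15 called lower in acute than untreated cells. For recovered against acute cells, with no calls, the authors' values gave 1 higher and 2 lower, the replicate block 2 and 5, the slide block 2 and 3, and normexp correction and the intensity trend 1 lower each. The cause of these shifts was not tested.

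With 1 array left out, the members called higher and lower numbered 17 to 19 and 13 to 15 (acute against untreated), 14 to 16 and 3 to 5 (tolerant against untreated), 17 to 20 and 14 to 18 (recovered against untreated), 6 to 10 and 10 to 15 (tolerant against acute), 10 to 14 and 3 to 6 (recovered against tolerant), and 0 to 0 and 0 to 1 (recovered against acute).

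The balance of all called genes depended on the scaling: 51.2% of those called between acute and untreated cells were higher, but 41.6% after quantile normalization and 37.3% in the authors' values, and the median of all genes moved from 0.04 to -0.10 and -0.09. For tolerant against untreated cells the share was 59.1%, 48.1% and 40.8%, for recovered against untreated cells 52.8%, 42.2% and 38.9%, and for recovered against acute cells 70.1%, 61.0% and 49.8%. Probes close to background, such as those of Trim16, Trim65 and Trim69, give differences that depend on the background correction.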
